A study of Mus musculus with 4 samples.

Results

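S100 proteins are small calcium-binding proteins with a pair of EF-hand motifs, found in vertebrates and encoded mostly in 1 gene cluster, on chromosome 3 in the mouse. Inside cells they dimerise and, on binding calcium, attach to target proteins such as annexins and the cytoskeleton. Several are also released and then act as signals of tissue damage. S100A8 and S100A9 pair as calprotectin, a major cytosolic protein of neutrophils that binds zinc and manganese, and both are known as attractants of myeloid and tumor cells in the lungs of tumor-bearing mice. The 10 transcripts described here, S100a1, S100a3, S100a4, S100a6, S100a8, S100a9, S100a10, S100a11, S100a13 and S100a16, were taken by gene symbol from the 54532 genes of the count table. All 10 were found, and 7 of them had enough counts to be tested.

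RNA came from AMs (alveolar macrophages, which live in the airspace of the lung) of wild-type female mice on a BALB/c background that entered the study at 8 to 10 weeks of age. The Control group comprised 2 libraries from mice that received no tumor cells. The Tumor group comprised 2 libraries from mice that carried, for 2 weeks, a primary tumor of the 4T1 line, mouse mammary carcinoma cells that metastasise on their own from the fat pad to the lung. The comparison addressed how AMs differ in the lung before metastases form. AMs isolated for staining at the same time were CD45+ CD11b- CD11c+ SiglecF+, a gate that leaves out CD11b+ cells such as neutrophils and eosinophils, while the sequencing methods say that AMs were purified and name no gate. Whether a library came from 1 mouse or a pool is not given in the sources used here. The p-values therefore measure the spread between these libraries, which may be technical.

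Total counts ranged from 16167147 to 19205737 per library, and values of 3 counts or fewer were taken as the floor, 0.153 to 0.190 CPM (counts scaled to library size by TMM, the trimmed mean of M-values). The floor covers counting error only. The libraries of a group were not the same library deposited again, since their counts differed by a chi-square of 1.86 per gene in the Control and 2.34 per gene in the Tumor pair. Of 14 AM markers, all were above the floor in every library, with a summed level of 16406 to 16551 CPM in Control and 12549 to 12691 CPM in Tumor libraries. In edgeR's quasi-likelihood test 12 of them were lower in the Tumor libraries, Ear1 was higher and Ear2 was not called. Directions below are relative to TMM scaling. With scaling on these AM markers, all tested genes had a median log2 fold change of 0.51 in place of 0.02, and the share of calls that were higher moved from 53.9% to 93.2%.

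Of the 7 tested S100 transcripts, 5 were higher, 1 was lower and 1 was not called in the Tumor libraries at a Benjamini-Hochberg adjusted p under 0.05, the threshold for every call below. Thus 6 of 7 passed, against 53.8% of all 14256 genes tested. Across all genes, 29.0% were higher and 24.8% were lower. The tested S100 transcripts had a median log2 fold change of 0.44, against 0.02 for all tested genes, and ranged from -0.31 to 10.66. Only S100a6, S100a8 and S100a9, 3 of the 7, were called with a difference of 2-fold or more, whereas 15.9% of all tested genes were called with such a change. The spread among the members was wide, with 3 transcripts that rose at least 34.3-fold and 4 that differed by at most 1.36-fold in either direction. With scaling on the AM markers all 7 were called higher, as were 69.9% of all tested genes.

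**Figure D1:**
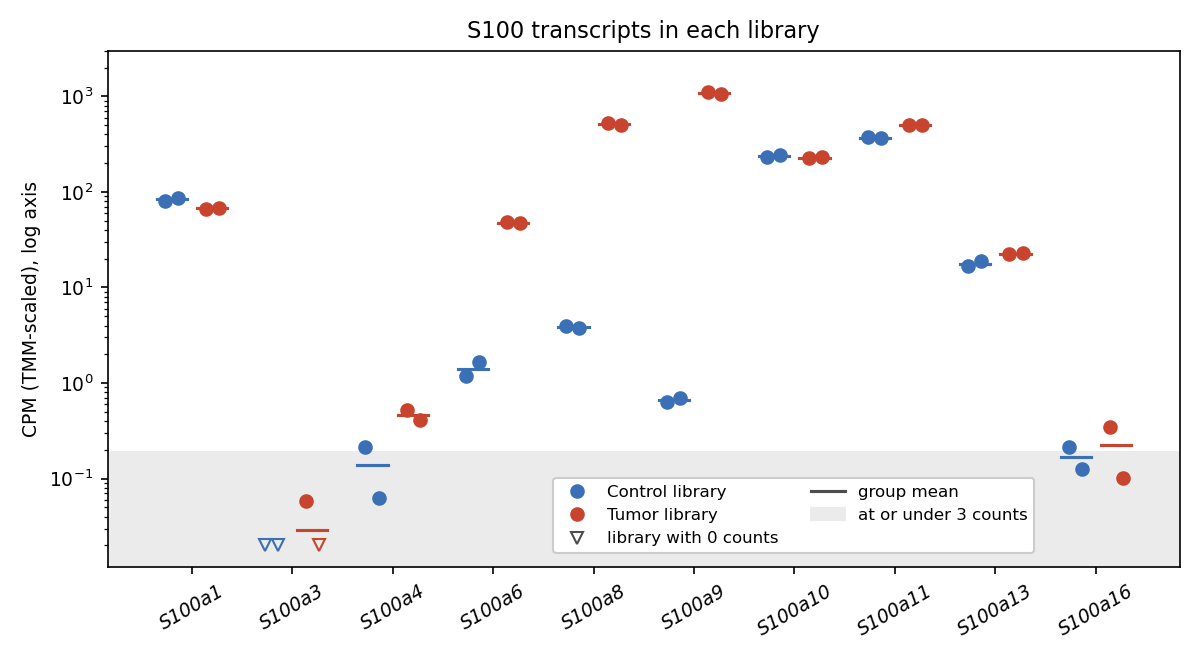
CPM of each S100 transcript in the 2 Control (blue) and 2 Tumor (red) libraries on a log axis, with bars at group means, open triangles for libraries with 0 counts and grey shading for values at or under 3 counts. S100a6, S100a8 and S100a9 lay far apart between the groups, whereas S100a1, S100a10, S100a11 and S100a13 differed by at most 1.36-fold.

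The calprotectin pair changed most. S100a9 (ENSMUSG00000056071, minus strand of chr3:90692632-90695721, GRCm38) yielded 12 and 11 counts from the Control and 19073 and 20990 from the Tumor pair. The mean was 0.668 ± 0.0401 CPM in Control and 1084 ± 22.4 CPM in Tumor (SD, n = 2 each). All 4 libraries were above the floor, the groups did not overlap, and the Tumor libraries stood at 1100.0 and 1068 CPM. S100a9 rose by 10.66 ± 0.302 on the log2 scale (SE, edgeR adjusted p = 7.57e-38).

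S100a8 (ENSMUSG00000056054, plus strand of chr3:90668978-90670035), the partner of S100a9, yielded 75 and 60 counts from the Control and 9065 and 9909 from the Tumor pair. The mean was 3.90 ± 0.141 CPM in Control and 514 ± 13.04 CPM in Tumor (SD, n = 2 each), again without overlap. S100a8 rose by 7.04 ± 0.128 on the log2 scale (SE, edgeR adjusted p = 1.64e-34).

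The balance of the pair differed between the groups. S100a8 held 86.2% (95% Wilson interval 77.4 to 91.9) and 84.5% (74.3 to 91.1) of the reads of both genes in the Control libraries. In the Tumor libraries it held 32.2% (31.7 to 32.8) and 32.1% (31.6 to 32.6). S100a8 was thus the more abundant of the pair in both Control libraries and the less abundant in both Tumor libraries. The intervals cover counting error only. Per gene length, S100a8 stood at 4.70 and 4.10 times S100a9 in the Control libraries, and S100a9 at 2.80 and 2.82 times S100a8 in the Tumor libraries. Together the pair took 0.000453% and 0.000439% of all counts in Control and 0.166% and 0.161% in Tumor libraries.

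S100a6 (ENSMUSG00000001025, plus strand of chr3:90612882-90624181) encodes calcyclin, a partner of the calcyclin-binding protein Cacybp and of annexins. Control libraries held 22 and 26 counts of it and Tumor libraries 838 and 931. The level rose from 1.41 ± 0.335 to 47.9 ± 0.667 CPM (SD, n = 2 each), a log2 fold change of 5.10 ± 0.221 (SE, edgeR adjusted p = 5.02e-22). The groups did not overlap. S100a6 lies 44.8 kb from S100a8, and S100a8 lies 22.6 kb from S100a9, so the 3 transcripts with the largest changes are successive members along the chromosome. Only S100a7a and the pseudogene Gm19739 lie among them, and S100a7a had at most 2 counts in any library.

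The sequences upstream of these 3 genes are shown because the genes rose together and because the series asks about the aryl hydrocarbon receptor (AHR), which binds DNA at a short core motif. They were read 5′ to 3′ on the strand of the gene from RefSeq promoter windows of GRCm38.p6, which held 9 of the 10 members. Each window spans 250 bases before to 50 bases after a RefSeq start, and only the bases before both that start and the gene start of the count table are printed. The stretch of S100a8 is chr3:90668821-90668977, that of S100a9 is chr3:90695722-90695971 on the minus strand, and that of S100a6 is chr3:90612644-90612881. S100a11, at chr3:93520246-93520487, is given for contrast as the most abundant member in the Control libraries. Capitals mark a match, on either strand, to 1 of the 4 motifs named in the next paragraph.
S100a8: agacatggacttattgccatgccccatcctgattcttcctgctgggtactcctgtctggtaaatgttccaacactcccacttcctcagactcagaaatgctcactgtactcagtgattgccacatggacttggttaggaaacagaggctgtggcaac
S100a9: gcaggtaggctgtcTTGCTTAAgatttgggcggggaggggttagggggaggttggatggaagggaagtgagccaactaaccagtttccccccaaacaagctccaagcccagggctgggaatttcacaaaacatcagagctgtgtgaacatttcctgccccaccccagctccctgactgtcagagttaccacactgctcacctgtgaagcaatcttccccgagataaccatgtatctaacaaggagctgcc
S100a6: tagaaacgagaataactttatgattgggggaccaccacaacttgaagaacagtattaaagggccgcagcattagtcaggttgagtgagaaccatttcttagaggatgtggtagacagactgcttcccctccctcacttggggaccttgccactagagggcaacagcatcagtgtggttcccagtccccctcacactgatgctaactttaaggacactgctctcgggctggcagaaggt
S100a11: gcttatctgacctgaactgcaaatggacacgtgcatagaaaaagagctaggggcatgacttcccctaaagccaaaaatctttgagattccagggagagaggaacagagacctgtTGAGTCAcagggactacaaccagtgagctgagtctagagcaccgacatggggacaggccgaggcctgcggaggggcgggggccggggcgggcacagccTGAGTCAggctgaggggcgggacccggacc

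The motifs searched on both strands of the whole windows were GCGTG (AHR core), TTGCNNAA (C/EBP), TTCNNNGAA (STAT) and TGANTCA (AP-1). Over the 32851 windows of the table, 32.4%, 10.8%, 8.30% and 7.81% held a match to them, in that order. The S100a8 and S100a6 windows held no match to any of the 4. The S100a9 window held 1 C/EBP match, TTGCTTAA, at -236 to -229 from the RefSeq start. The S100a11 window held 2 AP-1 matches, TGAGTCA, at -136 to -130 and at -38 to -32. An AHR core match was found in the S100a13 window at -190 to -186 and in 1 of the 4 S100a3 windows at -162 to -158, and 1 of the 2 S100a16 windows held an AP-1 match. A match is a match of letters and no evidence of binding, and a window without one says nothing of the factor.

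Among the members with small changes, S100a11 (ENSMUSG00000027907, plus strand of chr3:93520488-93526287) encodes a partner of annexin A1. Control libraries held 6997 and 5729 counts and Tumor libraries 8734 and 9744, that is, 368 ± 7.26 and 500 ± 5.48 CPM (SD, n = 2 each). The groups did not overlap. S100a11 rose by 0.44 ± 0.0334 on the log2 scale (SE, edgeR adjusted p = 2.48e-14).

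S100a10 (ENSMUSG00000041959, plus strand of chr3:93555080-93564643) encodes p11, a member that has lost calcium binding and joins annexin A2 in a plasminogen-binding complex at the cell surface. Control libraries held 4379 and 3853 counts and Tumor libraries 3883 and 4570, or 239 ± 7.43 and 228 ± 6.13 CPM (SD, n = 2 each). The Tumor libraries, at 224 and 233 CPM, lay just under the Control libraries, at 233 and 244 CPM. The log2 fold change of -0.06 ± 0.0383 (SE) did not pass, with an edgeR adjusted p of 0.121. It turned to 0.00401 with total counts as library sizes and to 0.43 with scaling on the AM markers, under which S100a10 was called higher. Without Control replicate 1 it was -0.09 and passed, with an edgeR adjusted p of 0.0484. S100a10 lies 28.8 kb from S100a11, and the 2 genes form a group of their own, 2825 kb from the other 8.

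S100a1 and S100a13 lie head to head on opposite strands. S100a1 (ENSMUSG00000044080, minus strand of chr3:90511034-90514392), best known as a calcium sensor of muscle, had 1524 and 1351 counts in the Control and 1154 and 1337 in the Tumor libraries. Its level fell from 83.3 ± 3.04 to 67.3 ± 1.06 CPM (SD, n = 2 each), without overlap, a log2 fold change of -0.31 ± 0.0576 (SE) with an edgeR adjusted p of 1.49e-05. S100a1 was the single member called lower, and scaling on the AM markers turned it to 0.19 and called it higher.

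S100a13 (ENSMUSG00000042312, plus strand of chr3:90514435-90524581) takes part in the release of the signal-less proteins FGF1 and IL-1 alpha. Control libraries held 314 and 299 counts and Tumor libraries 387 and 448, or 17.8 ± 1.55 and 22.6 ± 0.342 CPM (SD, n = 2 each). All 4 libraries were well above the floor, and the groups did not overlap. S100a13 rose by 0.34 ± 0.107 on the log2 scale (SE, edgeR adjusted p = 0.00526). This call was lost without Control replicate 1, at 0.25 and an edgeR adjusted p of 0.109, and in the DESeq2 Wald test, at 0.34 and an adjusted p of 0.0549. The annotated genes of S100a1 and S100a13 are 42 bases apart, and no exonic base of either is shared with an exon of another gene in GENCODE release M21. The bases between them, chr3:90514393-90514434 on the plus strand, are shown as the interval from which 1 transcript was called lower and the other higher, and they hold no match to the 4 motifs.
S100a1 to S100a13: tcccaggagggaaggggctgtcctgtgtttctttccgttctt

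**Figure D2:**
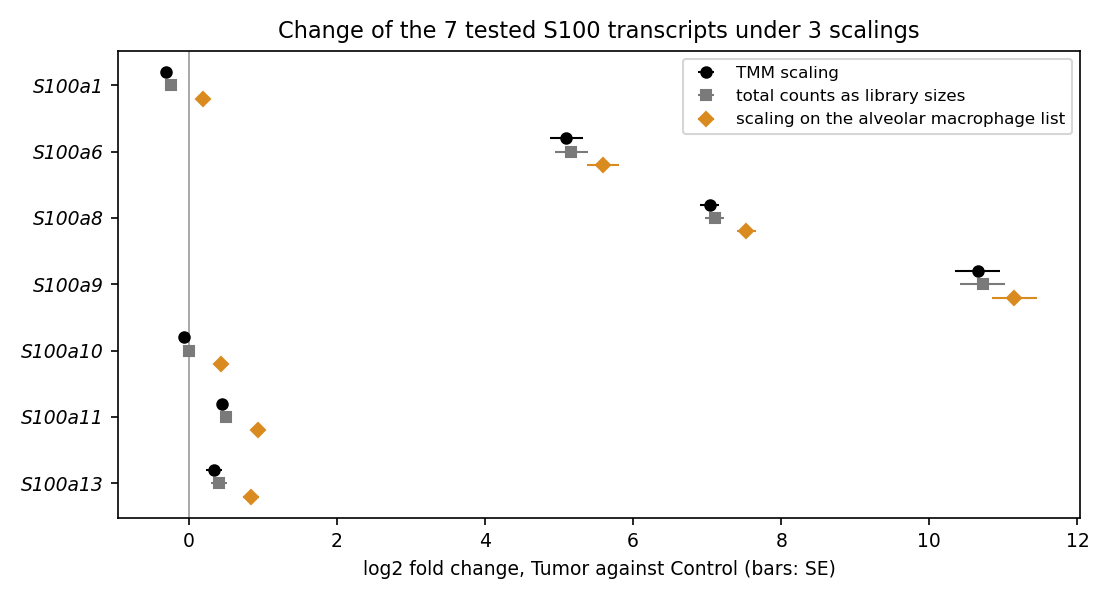
Log2 fold change (Tumor against Control, bars: SE, 2 libraries per group) of the 7 tested S100 transcripts under TMM scaling (circles), total counts as library sizes (squares) and scaling on the AM markers (diamonds). S100a6, S100a8 and S100a9 lay at or above 5.10 under each scaling, whereas S100a1 and S100a10 changed sign with scaling on the AM markers.

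The other 3 members were near the floor and were not tested. S100a4 (ENSMUSG00000001020, plus strand of chr3:90603771-90606045), known as metastasin and a partner of non-muscle myosin IIA, had 4 and 1 counts in the Control and 9 and 8 in the Tumor libraries. Of its 584 exonic bases, 302 (51.7%) are shared with exons of the predicted gene Gm42674, which had 0 counts in all 4 libraries. How reads over 2 genes were counted is not stated, so the S100a4 counts may leave out reads in the shared bases, and its level is uncertain. S100a16 (ENSMUSG00000074457), a broadly expressed member, had 4 and 2 counts in Control and 6 and 2 in Tumor libraries. S100a3 (ENSMUSG00000001021), best known from hair follicles, was found once, in Tumor replicate 1, and had 0 counts elsewhere. No difference in S100a3 or S100a16 was detectable at this depth.

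Of 7 further S100 genes written as a list, S100a5, S100a7a, S100a7l2, S100a14, S100b, S100g and S100z, 6 were matched in the table and none had enough counts to be tested. S100a5 and S100z had 0 counts throughout. S100g, which encodes the calbindin of the gut, had 4 and 3 counts in Control and 1 and 16 in Tumor libraries, so that Tumor replicate 2 alone carried its higher value. Of 7 fused S100 genes, large relatives of the skin and hair that begin with an S100 domain, Tchh, which encodes trichohyalin, was the only one tested. It had 255 and 216 counts in Control and 167 and 202 in Tumor libraries, a log2 fold change of -0.45 ± 0.139 (SE) with an edgeR adjusted p of 0.00405. Of the other 6, Flg, Flg2, Hrnr, Tchhl1 and Crnn had 0 counts in both Control libraries, and Rptn had 2 and 0.

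Along the chromosome, the 8 members from S100a1 to S100a9 span 185 kb of chromosome 3. The 8 other genes of that stretch did not reach the filter, so that every tested gene in it was an S100 member. Over the 3.05 Mb from S100a1 to S100a10 there were 111 other genes, of which 3 were tested. Tchh was called lower, and the predicted genes Gm4202 and Gm9774 were not called, with log2 fold changes of 0.11 and 0.06.

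Levels of different genes were compared as FPKM (CPM divided by gene length in kilobases), computed from the counts and the gene lengths of the table. In the Control libraries the order was S100a11 at 720 ± 14.2, S100a10 at 197 ± 6.13, S100a1 at 120 ± 4.37, S100a13 at 24.9 ± 2.17, S100a8 at 5.61 ± 0.203, S100a9 at 1.28 ± 0.0768 and S100a6 at 1.03 ± 0.245 FPKM (SD, n = 2 each). S100a9 and S100a6 were close to each other in this order, with S100a6 at 0.857 and 1.20 and S100a9 at 1.22 and 1.33 FPKM, and they changed places when the longest annotated transcript was used as the length. In the Tumor libraries the order was S100a9 at 2077 ± 42.8, S100a11 at 978 ± 10.7, S100a8 at 740 ± 18.8, S100a10 at 188 ± 5.06, S100a1 at 97.0 ± 1.53, S100a6 at 35.0 ± 0.488 and S100a13 at 31.6 ± 0.478 FPKM (SD, n = 2 each). S100a8 and S100a11 changed places with the longest transcript, at 1031 and 978 FPKM. The longest transcript also raised S100a10 to 348 FPKM in Control and 333 FPKM in Tumor libraries, and S100a6 to 1.80 and 61.1 FPKM, so levels between genes depend on the length used, while the comparison of a gene between groups does not. S100a4, S100a16 and S100a3 were lowest in both groups, each under 1 FPKM.

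The make-up of the S100 transcripts therefore differed between the groups. With the gene lengths of the table, the summed FPKM of the 10 members was 1071 and 1068 in the Control and 4195 and 4101 in the Tumor libraries. S100a11 held 68.1% and 66.4% of it in Control and 23.5% and 23.7% in Tumor libraries. S100a9 held 0.114% and 0.125% in Control and 50.2% and 49.9% in Tumor libraries, and S100a8 went from 0.538% and 0.512% to 18.0% and 17.7%. A pair that was marginal in Control AMs thus supplied most of the S100 transcript in the Tumor libraries, at an S100a11 level that rose by 0.44 on the log2 scale.

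**Figure D3:**
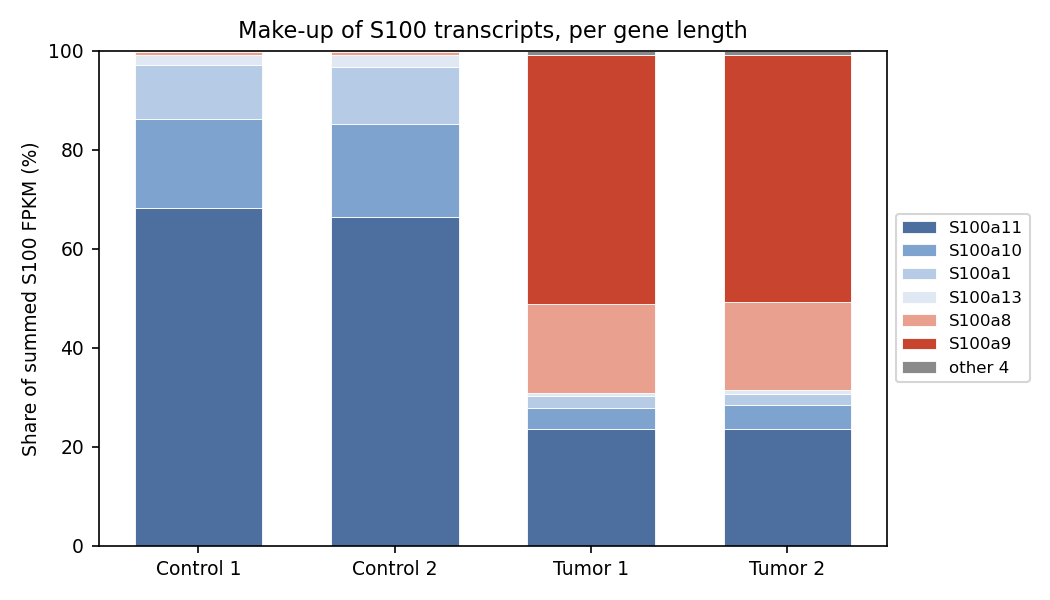
Share of the summed S100 FPKM (%) held by each member in the 4 libraries, with S100a3, S100a4, S100a6 and S100a16 pooled as the other 4. S100a11 held over 66% of the bar in both Control libraries, and S100a9 held 50.2% and 49.9% in the Tumor libraries.

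The transcripts nearest to S100a8, S100a9 and S100a6 in level over the 4 libraries were found by Euclidean distance of log2 CPM. For S100a8 they were Adam8, Sorl1 and Cyp4f18, at distances of 0.57, 0.83 and 1.22. Adam8, which encodes a metalloproteinase of leukocytes, had 92 and 67 counts in Control and 10986 and 12864 in Tumor libraries. For S100a9 they were Retnlg, Alox15 and Hdc, at 0.90, 1.73 and 2.55. Retnlg, a neutrophil transcript, had 17 and 13 counts in Control and 12835 and 14826 in Tumor libraries, and Hdc, the histamine-forming enzyme, had 38 and 27 against 8101 and 9401. For S100a6 they included Myo1d and 1700071M16Rik, at 0.33 and 0.74. Distances over 4 libraries in 2 groups mostly reflect the 2 group means.

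Transcripts of other cells moved in the same libraries. All 12 neutrophil markers were higher, with a summed level of 109.5 to 109.6 CPM in Control and 3157 to 3186 CPM in Tumor libraries, and Elane and Padi4 had 0 counts in both Control libraries. Csf3r and Mmp8, at 65.7 and 38.1 CPM, held most of the Control sum. Ngp, a neutrophil granule protein, had 0 and 2 counts in Control and 14766 and 16608 in Tumor libraries. All 5 eosinophil markers were higher, from 0.480 to 0.506 CPM in sum to 2201 to 2221 CPM, with Prg3 at 0 counts in both Control libraries. All 6 basophil and mast cell markers were higher, from 2.02 to 2.29 CPM to 522 to 529 CPM, with Mcpt8, Fcer1a and Ms4a2 at 0. Of 8 hepatocyte genes 7 were higher, with Alb, Ttr, Ahsg, Apob, Serpina1a and Fga at 0, and the 7 summed to 0.0533 to 0.190 CPM in Control and 635 to 637 CPM in Tumor libraries. The eighth, Trf (transferrin), was lower, at 142 and 128 CPM, and held nearly all of the Control sum of the whole list, 142 to 143 CPM, against 761 to 768 CPM in Tumor libraries. With genes at the floor in both Control libraries set to their lower bounds, the lists had median log2 fold changes of 8.03 (neutrophil), 8.37 (eosinophil), 5.598 (basophil and mast cell) and 6.92 (hepatocyte). Itgam, which encodes CD11b and was chosen after its values were seen, had 21 and 18 counts in Control and 2258 and 2618 in Tumor libraries, a log2 fold change of 6.86 ± 0.236 (SE, edgeR adjusted p = 4.45e-28). In bulk RNA, more cells of a type and more RNA per cell cannot be told apart, and the part of these cells in the rise of S100a6, S100a8 and S100a9 was not tested.

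The lists of the remaining cell types held both higher and lower genes, except the lymphocyte list, in which none was lower. For comparison, 29.0% of all tested genes were higher and 24.8% were lower. Of 8 monocyte and interstitial macrophage markers 3 were higher and 4 lower, from 349 to 351 CPM in sum in Control to 211 to 229 CPM in Tumor libraries, with Fn1 (fibronectin) holding most of the sum. Ccr2, a receptor of recruited monocytes, was higher by 1.33 on the log2 scale, Ly6c2 by 2.46 and F13a1 by 0.73. Ly6c2 had 2 and 7 counts in Control and 14 and 41 in Tumor libraries. Among the lower genes, Cx3cr1, a chemokine receptor of resident cells, changed by -1.71, Fn1 by -0.80 and C1qb, a complement gene, by -1.27. The dendritic cell list had 3 of 6 higher and 1 lower, with 9.32 to 9.87 CPM in Control and 35.4 to 36.7 CPM in Tumor libraries. The lymphocyte list had 4 of 5 tested markers higher, with 4.10 to 4.56 CPM against 16.7 to 18.8 CPM. Among 7 epithelial genes, some of which 4T1 cells share, 2 were higher and 4 lower, with 504 to 530 CPM against 323 to 328 CPM. Krt19, called lower, held most of each sum, at 306 CPM in Control and 183 CPM in Tumor libraries. The 2 higher genes were Krt18, by 3.77 on the log2 scale, and Krt8, by 1.79. Krt18 had 5 and 10 counts in Control and 105 and 117 in Tumor libraries, and Krt8 had 8 and 4 against 17 and 28. Among 6 stromal and endothelial genes 3 were higher and 1 lower, with 116 to 119 CPM against 108 to 109 CPM. Vwf, the lower gene, held most of each sum, at 111 CPM in Control and 81.8 CPM in Tumor libraries. Pecam1 was higher by 3.13, Col1a1 by 3.05 and Col3a1 by 1.91 on the log2 scale, from low Control counts. No marker of these 5 lists had 0 counts in both Control libraries. Their part in the S100 changes was not tested.

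**Figure D4:**
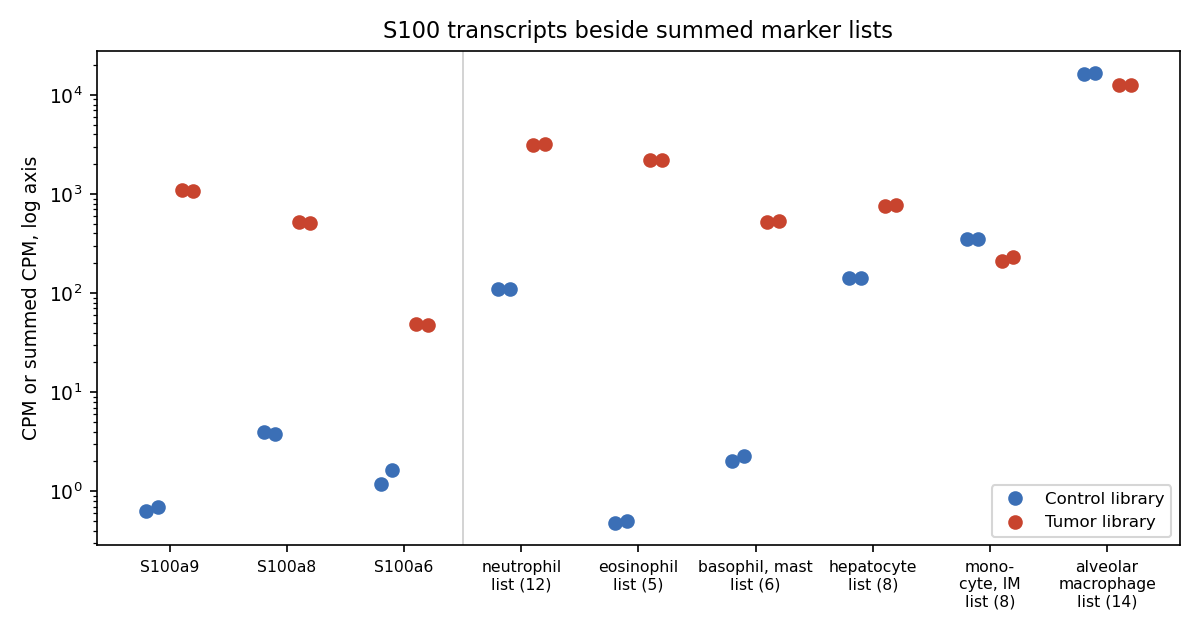
CPM of S100a9, S100a8 and S100a6 and the summed CPM of 6 marker lists in the 2 Control (blue) and 2 Tumor (red) libraries on a log axis, with the lower library of each group drawn first for the lists (IM, interstitial macrophage). The neutrophil sum was 109.5 to 109.6 CPM in Control and 3157 to 3186 CPM in Tumor libraries, the hepatocyte sum of Control is nearly all Trf, and the AM sum went from 16406 to 16551 CPM to 12549 to 12691 CPM.

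The partners of the S100 proteins were then examined in 6 lists with 36 genes. Of 35 tested, 16 were higher and 11 lower, so that 27 were called, with a median log2 fold change of 0.10. Over all tested genes 53.8% were called, 29.0% higher and 24.8% lower. With scaling on the AM markers 28 were higher and 5 lower, when 75.0% of all tested genes were called, 69.9% higher and 5.07% lower.

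Of 5 receptor genes none was called higher and 3 were called lower under TMM scaling. Tlr4, through which S100A8 and S100A9 act on myeloid cells, had 3753 and 2988 counts in Control and 2873 and 3064 in Tumor libraries, a log2 fold change of -0.28 ± 0.0415 (SE) with an edgeR adjusted p of 6.02e-07. Alcam and Cd36, which bind S100A9 and the calprotectin pair, changed by -0.44 and -0.45. Bsg, another S100A9 receptor, was at 182 ± 6.15 and 176 ± 7.72 CPM (SD, n = 2 each) and was not called. Ager, the receptor RAGE, had 74 and 51 counts in Control and 60 and 116 in Tumor libraries and was not called. With scaling on the AM markers Tlr4, Bsg and Ager were called higher and Alcam and Cd36 were no longer called.

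Of 10 binding partners 4 were higher and 3 lower. For S100a10 these were Anxa2 and Ahnak, the scaffold that binds the complex of both proteins. Anxa2 changed by -0.38 ± 0.0282 and Ahnak by -0.75 ± 0.0279 on the log2 scale (SE), although Anxa2 turned to 0.12 with scaling on the AM markers. For S100a11, Anxa1 was higher by 0.13, from 1114 ± 1.87 to 1222 ± 4.05 CPM (SD, n = 2 each). For S100a6, Cacybp was higher by 0.40, Anxa6 by 1.09 and Anxa11 by 0.32, and Sugt1, at 0.14, was not called. For S100a4, Myh9, the heavy chain of non-muscle myosin IIA, was at 2324 and 2323 CPM in the Control and Tumor groups. For S100a13, Il1a, which encodes the cytokine IL-1 alpha, had 51552 and 42521 counts in Control and 14890 and 17128 in Tumor libraries, a log2 fold change of -1.65 ± 0.0276 (SE) with an edgeR adjusted p of 3.71e-31, and Fgf1 was not called. Ahnak and Il1a were still called lower with scaling on the AM markers.

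In the plasminogen system, Plau, the urokinase activator, changed by -0.89 on the log2 scale, and Serpinb2 and Plg were higher. Serpinb2, the inhibitor PAI-2, had 19 and 8 counts in Control and 2042 and 2137 in Tumor libraries, a log2 fold change of 7.17 ± 0.283 (SE, edgeR adjusted p = 2.25e-26). Plg, the plasminogen transcript of liver, was absent from the counts of both Control libraries (0 each) but had 197 and 213 in Tumor, which is at least 57.1-fold higher. In the same Control libraries 7 of the 8 hepatocyte genes were at the floor, and the part of liver RNA in the Plg value was not tested. Plaur and Plgrkt, receptors of the system, were not called, and Plat was too low to be tested.

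The calprotectin pair carries arachidonic acid to the NADPH oxidase of phagocytes. Among its genes, Rac2 was higher by 1.34, Ncf4 by 1.18 and Ncf1 by 0.22 on the log2 scale, whereas Cybb, the catalytic subunit, had 80257 and 65706 counts in Control and 45741 and 50359 in Tumor libraries, a log2 fold change of -0.70 ± 0.0258 (SE). Cyba, its membrane partner, was not called. Cybb was still called lower with scaling on the AM markers.

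Of the C/EBP factors and PU.1, which are known to act at the promoters of S100a8 and S100a9, 4 were higher and 1 lower. Cebpe, a factor of late granulocyte maturation, had 7 and 1 counts in Control and 470 and 521 in Tumor libraries, a log2 fold change of 6.81 ± 0.521 (SE) with an edgeR adjusted p of 2.70e-19. Cebpd was higher by 0.99, Cebpa by 0.34 and Cebpb by 0.33. Spi1, which encodes PU.1, changed by -0.13, and by 0.36 with scaling on the AM markers. Cebpe is known mainly from granulocytes, whose markers rose in the same libraries, and the part of those cells in its value was not tested. Of the calmodulins, EF-hand calcium sensors outside the family, Calm2 was higher by 0.54 and Calm3 by 0.10.

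**Figure D5:**
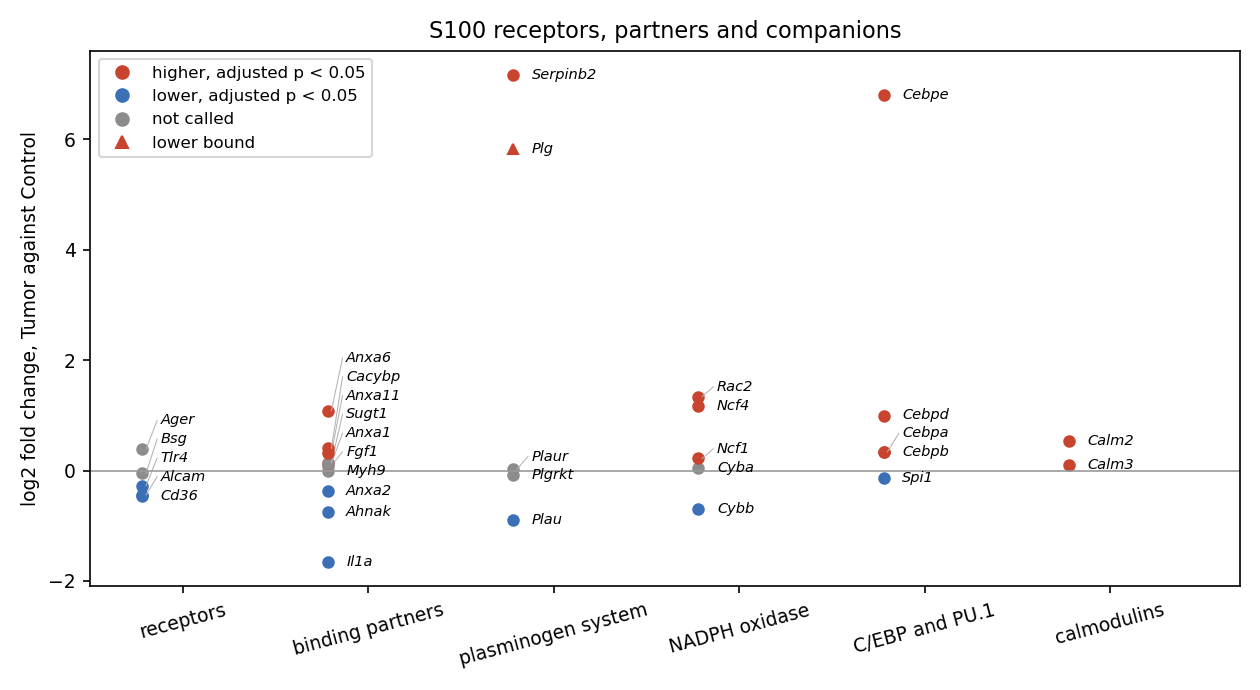
Log2 fold change (Tumor against Control, TMM scaling) of tested genes in 6 lists of S100 receptors, partners and companions, coloured red for higher, blue for lower and grey for not called, with a triangle for the lower bound of Plg. Most genes lay within 2 units of 0, and Serpinb2 and Cebpe lay at 7.17 and 6.81.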

How the data were processed

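Per the labels and methods, RNA of purified AMs was extracted with TRIzol, libraries were made with a NEBNext Ultra kit, and paired-end reads were aligned by the authors with HISAT2 2.0.5 and assigned to genes with featureCounts. The table deposited by the authors holds raw counts, 1 column per library. The labels also name DESeq2, whose results were not used. The gene length column of the deposited table served only for FPKM. Genome build, strand setting and treatment of reads over several genes are not given in the sources used here. Of the gene identifiers, 54409 were found in GENCODE M21 (GRCm38), 98.3% with the same position, as were all 10 members.

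Groups and replicate numbers were taken from the sample titles. Counts were tested in R 4.3.3 with edgeR 4.0.16 (quasi-likelihood, TMM, filterByExpr with a minimum count of 10, 2 residual degrees of freedom), which kept 14256 genes, with Benjamini-Hochberg adjustment over all of them and a threshold of 0.05. SE is the Wald standard error from the fitted means and dispersion, with the quasi-dispersion held at 1 or more so that it is not below counting error. CPM used TMM-scaled totals, and log2 CPM for distances used a prior count of 2. Named were all 10 members, genes of the partner lists, up to 4 genes of each marker list and of the genes between members, and the 3 nearest transcripts of S100a6, S100a8 and S100a9 (S100a4 was not tested). A few of these genes are not reported here. AM markers, the genes listed as at 0 counts, Ly6c2, F13a1 and the neighbour Gm9774 extend this rule. The members, lists and alternatives were chosen with earlier results of these data known. Alternatives were DESeq2 1.42.0 size factors, total counts, scaling on AM markers, other filters, the DESeq2 Wald test, limma-voom (limma 3.58.1), a replicate block, stricter thresholds and leaving out each library.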

Additional observations from a re-analysis of the deposited data

How the results depend on the processing

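The count of S100 members past the threshold was 6 as reported, 5 in the DESeq2 Wald test and 7 with scaling on the AM markers. The requirement of a 2-fold change left 3 members, 2268 of all genes and 8 of the partner genes. Leaving out each library in turn moved S100a10 between -0.09 and -0.04 and S100a13 between 0.25 and 0.43 on the log2 scale. Both changed call without Control replicate 1, as given above. S100a1 was reversed to 0.19 by scaling on the AM markers. S100a10 was reversed to 0.00401 by total counts and to 0.43 by scaling on the AM markers. S100a13 was not called by the DESeq2 Wald test or without Control replicate 1, as given above. S100a6, S100a8, S100a9 and S100a11 kept their direction and call in all 12 alternative fits, between 4.86 and 5.59, 6.998 and 7.53, 10.59 and 11.15, and 0.42 and 0.94 on the log2 scale. No effect shared by libraries of the same replicate number was detected (correlation of same-number deviations -0.00278). With 2 libraries per group this cannot show that the samples were unpaired. The fit with a replicate block gave 6 members, 7446 of all genes and 27 partner genes, with no member's call changed. Where a library was left out, the remaining one of its group was assumed to vary like the others. Control counts of 11 to 26 for S100a9 and S100a6 limit the precision of their fold changes, and S100a3, S100a4 and S100a16 could not be resolved at this depth.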
